A study of Mus musculus with 6 samples.

Results

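The 9 genes described here, Klf2, Klf4, Klf5, Esrrb, Tfcp2l1, Tbx3, Nr5a2, Prdm14 and Nr0b1, encode transcription factors of the naive pluripotency network of mouse embryonic stem (ES) cells. They were chosen by name, and all 23 probe sets that the platform annotation assigned to a single one of these symbols were read, among 45037 tested probe sets of 18193 genes with such an annotation. Expression was measured on 6 whole-genome Affymetrix mouse arrays as log2 signals, and a difference of 1 on this scale is a doubling of the signal.

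All cultures were undifferentiated mouse ES cells of the line EBRTcH3, kept in serum medium with leukemia inhibitory factor (LIF). Every culture carried the coding sequence of human WBSCR1, a translation initiation factor gene known as Eif4h in the mouse, fused to 3xFLAG and placed at ROSA26 behind a promoter that tetracycline represses. Control cells were grown with tetracycline, which holds the promoter off, and induced cells had been without it for 24 h. Of the 3 separately selected clones A1, A3 and A4, each was hybridized once as control and once as induced, so that a group holds 3 arrays and a clone 2. Expression of the transgene and loss of the drug always came together and cannot be told apart, and a group stands for 3 selected clones, each derived from a single colony.

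The naive state is the condition of the early epiblast before implantation, and mouse ES cells are its counterpart in culture. LIF acts through the Stat3 transcription factor, whose targets include Klf4 and Tfcp2l1, while relief of the repressor Tcf7l1 by Wnt signalling raises Esrrb, Klf2, Tfcp2l1 and Nr0b1. Klf2, Klf4 and Klf5 bind the same GC-rich box and can stand in for each other in self-renewal. Epiblast cells that leave the naive state lower this network and raise formative and primed genes such as Otx2, while Pou5f1 and Sox2 stay on in both states.

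Clone A3 was set against A1 and A4 because genes of the primed state were already known to be higher in it. In the present values Otx2, a head and epiblast homeobox factor, read 8.85 and 8.46 log2 in the A3 control and induced arrays, 5.16 and 5.62 in A1, and 6.18 and 6.17 in A4. Of 18 measured formative and primed genes, 16 had a positive difference and the median was 0.62 log2. Those values are what singled the clone out, so they are given as a description. The question is where the naive factors stood in the same clone.

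The promoters of Klf4 and Klf2 are shown because these paralogues lay on opposite sides in A3. That of Esrrb is shown because its brightest probe set, though not its others, was also lowest in A3. Each line is the 250 bases upstream of a RefSeq transcription start on assembly GRCm38.p6, 5′ to 3′ on the strand of the gene, with matches to the box CCNCNCCC on either strand in capitals, the GC-rich box that Klf and Sp proteins bind. The windows are chr4:55532476-55532725 on the minus strand for Klf4, chr8:72318812-72319061 on the plus strand for Klf2 and chr12:86360867-86361116 on the plus strand for the first of 2 Esrrb starts.
Klf4: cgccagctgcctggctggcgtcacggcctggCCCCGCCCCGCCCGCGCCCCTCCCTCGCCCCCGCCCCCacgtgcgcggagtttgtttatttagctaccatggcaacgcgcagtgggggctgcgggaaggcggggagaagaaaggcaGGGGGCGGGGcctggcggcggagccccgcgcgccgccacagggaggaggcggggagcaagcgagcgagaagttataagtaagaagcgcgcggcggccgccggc
Klf2: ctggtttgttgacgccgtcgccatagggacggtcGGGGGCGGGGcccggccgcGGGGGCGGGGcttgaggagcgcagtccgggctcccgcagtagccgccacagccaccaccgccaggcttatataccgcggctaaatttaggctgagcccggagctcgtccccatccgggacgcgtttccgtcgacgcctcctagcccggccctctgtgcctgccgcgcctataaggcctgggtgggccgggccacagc
Esrrb: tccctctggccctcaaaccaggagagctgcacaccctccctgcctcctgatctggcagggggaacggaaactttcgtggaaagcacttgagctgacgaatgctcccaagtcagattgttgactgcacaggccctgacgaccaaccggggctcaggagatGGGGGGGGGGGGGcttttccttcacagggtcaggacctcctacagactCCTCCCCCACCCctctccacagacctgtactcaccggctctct
The Klf4 window held 9 matches and the Klf2 window 4, with overlapping matches counted each, and their GC content was 74.0% and 71.2%. The Esrrb window held 8 matches at 60.8% GC, several of them within a single run of G, and a second Esrrb window, at chr12:86421394-86421643, held 1 match at 52.0% GC. The box was present in 6 of the 8 windows found for 6 of the genes, and in 45.9% of 32851 promoter windows. A Stat site, TTCCNNGAA, was found in 1 of the 8 windows, that of Esrrb printed above, and in 4.06% of all windows. The orphan receptor half-site AAGGTCA (4.08% of all windows), the octamer ATTTGCAT (1.6%), the T-box half-site TCACACC (3.33%) and the Tcf site CTTTGAT (3.21%) had no match in the 8 windows. All were searched on both strands, and a match is a description of letters, not a bound site. Windows for Klf5, Tbx3 and Prdm14 were not analysed here.

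The 2 A3 arrays stood apart from the other 4 at several array controls, in both conditions. The dap, lys, phe and thr controls are foreign RNAs added to a sample before labelling, and all 24 of their probe sets were higher in both A3 arrays, with means of 7.39 and 7.27 log2 in A3 against 5.97 to 6.35 elsewhere, a difference of 1.21. Of the controls added at hybridization, bioC was higher in A3 by 1.05 and bioB by 0.24, while the difference was -0.27 for bioD and -0.21 for cre. Only 3 of the 6 bioB probe sets had both A3 arrays above all others. Array medians were 5.11 to 5.19 log2. The difference between 3′ and 5′ Actb control probe sets was 0.32 and 0.29 in A3 and 0.40 to 0.45 in the other arrays, and the 18S signal was 6.61 and 7.27 in A3, 5.66 and 7.03 in A1 and 5.99 in both A4 arrays. The differences in the mean signals of the added RNAs and in Actb follow the clone, while the 18S signal and the array medians do not separate A3. How the A3 arrays were prepared and what the A3 cells expressed therefore cannot be told apart in any difference of A3 below.

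At the brightest probe set of each gene, clone A3 had the lowest signals of 5 naive factors in both of its cultures. These were Klf4, Klf5, Esrrb, Tbx3 and Nr0b1. It likewise had the highest signals of Klf2 and Prdm14. Read in the same way, A3 was lowest in both cultures at 3373 of all 18193 genes and highest at 4196. A highest place in A3 was thus no more frequent among the 9 genes than among all genes. By the brightest probe set of each gene, the fall passed the test for Klf4 (-0.51 log2) and Klf5 (-0.44 log2), and no member was called higher. Tfcp2l1 and Nr5a2 overlapped with the other clones. The 9 differences ran from -0.51 to 0.33 log2, with a median of -0.24 against a median of 0.04 over all 18193 genes.

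**Figure D1:**
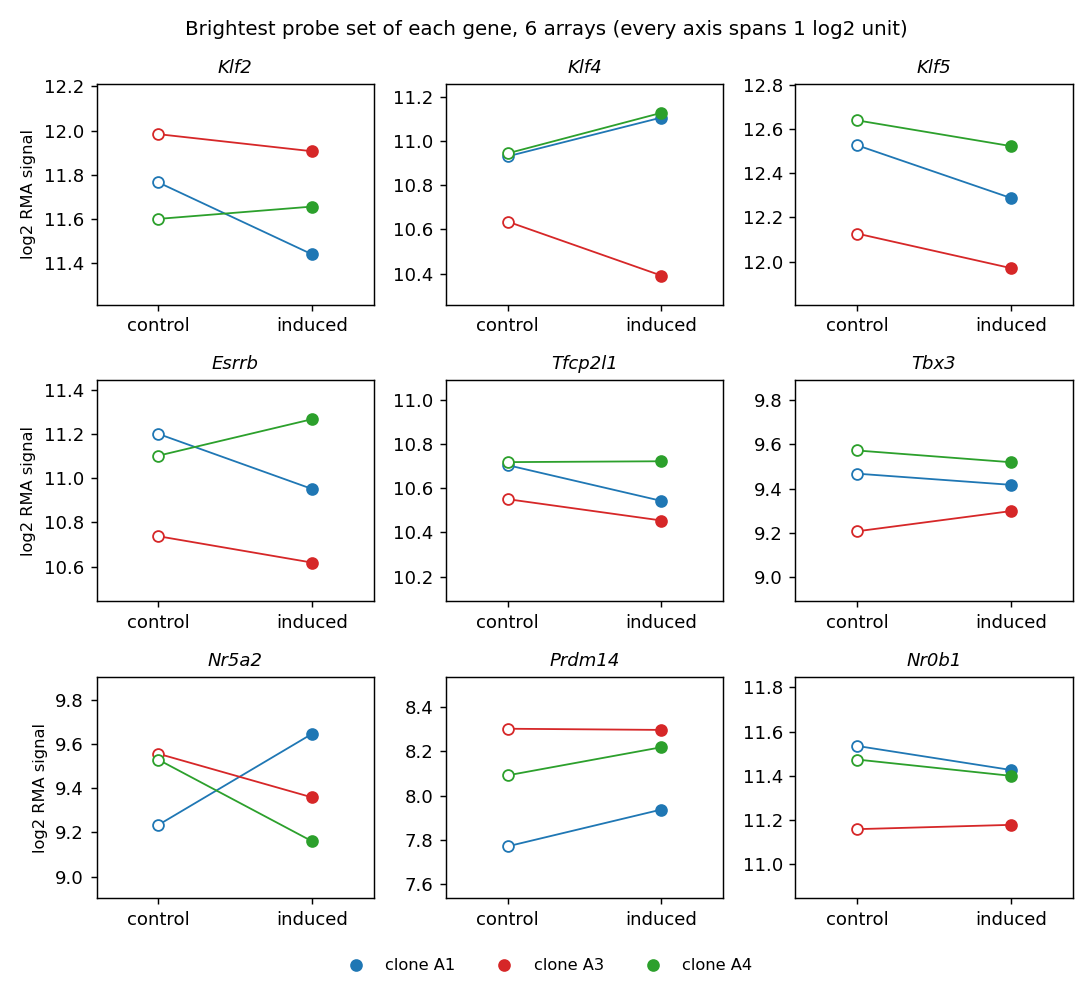
Log2 signal of the brightest probe set of each of the 9 genes (vertical axis, 1 log2 unit in each panel) in control (open) and induced (filled) cultures, with a line joining the cultures of a clone. The red A3 points lie below all others for Klf4, Klf5, Esrrb, Tbx3 and Nr0b1 and above all others for Klf2 and Prdm14.

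The 3 Krüppel-like factors did not lie on the same side in A3. Klf4, a zinc finger factor that LIF and Stat3 switch on, lies at chr4:55527137-55532475 (GRCm38.p6, as for all positions here). Its brightest probe set (1417394_at) read 10.93 and 11.11 log2 in A1 control and induced, 10.94 and 11.13 in A4, and 10.64 and 10.39 in A3. Both A3 arrays were lower than the other 4, and the A1 and A4 arrays matched within 0.02 log2 in each condition. The A3 difference was -0.51 ± 0.12 (SE), 1.43-fold lower, with a limma adjusted p of 0.0384. It was -0.30 in the control cultures and -0.73 in the induced cultures. Leaving out any single array except the A3 control, or clone A1 or A4, ended the call, with differences of -0.57 to -0.30 and adjusted p of 0.0544 to 0.361, the last without the A3 induced array. A second Klf4 probe set (1417395_at) gave 10.14 and 10.19 in A1, 10.29 and 10.25 in A4 and 9.86 and 9.69 in A3, a difference of -0.44 ± 0.10 (adjusted p = 0.0355).

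Klf5, which acts in the inner cell mass and in ES cell self-renewal, lies at chr14:99298691-99313412. The brightest probe set (1451021_a_at) read 12.53 and 12.29 in A1, 12.64 and 12.52 in A4, and 12.13 and 11.97 in A3. Again both A3 arrays were lowest, by -0.44 ± 0.10 or 1.36-fold (limma adjusted p = 0.0284). Leaving out any single array ended this call too, with differences of -0.42 to -0.47 and adjusted p of 0.0682 to 0.165. The dimmer 1451739_at had the largest member difference, -0.92 ± 0.17 (adjusted p = 0.0153), with 6.45 and 6.55 in A3 against 7.11 and 7.39 in A1 and 7.89 and 7.30 in A4. This was also the only member probe set that passed an F test over the 3 clones (adjusted p = 0.0382), a test that 5.54% of all probe sets passed. The dimmest, 1430255_at, read only 3.87 to 4.01 in all arrays and differed by 0.06 (adjusted p = 0.767).

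Klf2, the paralogue that mitogen-activated kinase signalling destabilizes as a protein, lies at chr8:72319062-72321654 and had a single probe set. It read 11.77 and 11.44 in A1, 11.60 and 11.66 in A4, and 11.98 and 11.91 in A3. The A3 arrays were the highest, but the difference of 0.33 ± 0.11 did not pass (adjusted p = 0.120; 95% interval 0.07 to 0.59). Set against Klf4 within each array, Klf2 minus Klf4 was 1.35 and 1.52 log2 in the A3 control and induced arrays and between 0.34 and 0.84 in the other 4, a shift of 0.84. Klf2 minus Klf5 shifted by 0.77, from between -1.04 and -0.76 to -0.14 and -0.06. Klf4 minus Klf5 did not separate the clones, at -1.49 and -1.58 in A3 within a range of -1.69 to -1.18 elsewhere. These within-array differences mix probe sets of unlike brightness, so only their shift between clones is read, and it was not tested. Each shift restates the A3 differences of the genes in the pair, given above, and adds no separate evidence.

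Esrrb and Nr0b1 encode nuclear receptors. Esrrb, an orphan receptor downstream of Wnt and Tcf7l1, lies at chr12:86361117-86521628. Its brightest probe set (1436926_at) read 11.20 and 10.95 in A1, 11.10 and 11.27 in A4 and 10.74 and 10.62 in A3. The A3 arrays were the lowest, and the difference of -0.45 ± 0.12 narrowly missed the threshold (adjusted p = 0.0504; 95% interval -0.72 to -0.18). The other Esrrb probe sets did not follow it. At 1441921_x_at the difference was -0.10 (95% interval -0.35 to 0.16) and at 1422986_at 0.02 (-0.22 to 0.26), with means of 9.55 and 8.58 log2. Which part of the Esrrb transcript each probe set reads was not analysed here.

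Nr0b1, also called Dax1, is a receptor without a DNA-binding domain and a partner of Pou5f1 and Nr5a2. It lies at chrX:86191775-86195947. Its probe set read 11.54 and 11.43 in A1, 11.47 and 11.40 in A4 and 11.16 and 11.18 in A3. Both A3 arrays were lower than the others by more than the spread within any clone, with a difference of -0.29 ± 0.10 that was not called (adjusted p = 0.114).

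Nr5a2, the liver receptor homologue that drives Pou5f1 in the epiblast, lies at chr1:136842562-136960448. The brightest of 4 probe sets (1420410_at) gave 9.23 and 9.65 in A1, 9.53 and 9.16 in A4 and 9.56 and 9.36 in A3. Those values overlapped, the difference was 0.07 ± 0.16 (adjusted p = 0.850), and its sign turned without the A1 control (-0.11), the A3 control (-0.04) or the A4 induced array (-0.05). The remaining Nr5a2 probe sets differed by 0.13, -0.05 and -0.03, with adjusted p of 0.501, 0.840 and 0.886.

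Tbx3 is a T-box factor that connects LIF signalling to Nanog and is also raised in primitive endoderm. It lies at chr5:119670534-119684724 and had 5 probe sets. The brightest (1448029_at) read 9.47 and 9.42 in A1, 9.57 and 9.52 in A4 and 9.21 and 9.30 in A3, a difference of -0.24 ± 0.10 (adjusted p = 0.183). At 1437479_x_at the gap was wider and was called, at -0.51 ± 0.11 (adjusted p = 0.0221), with 7.92 and 8.13 in A3 against 8.42 and 8.51 in A1 and 8.65 and 8.57 in A4. At a further one, 1445757_at, A3 differed by -0.48 (adjusted p = 0.0572), and its A3 arrays were also the lowest. The 2 dimmest, with means of 4.88 and 3.56, differed by 0.12 and -0.004. All 3 Tbx3 probe sets above 5 log2 therefore had A3 at the bottom, and 1 of them passed.

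Tfcp2l1, a grainyhead-like factor and Stat3 target, lies at chr1:118627923-118685168. It read 10.70 and 10.54 in A1, 10.72 and 10.72 in A4 and 10.55 and 10.45 in A3. The A3 control array and the A1 induced array were 0.01 apart, so that the groups overlapped, and the difference was -0.17 ± 0.10 (adjusted p = 0.345; 95% interval -0.40 to 0.06). Its other probe sets read about 3 log2 and were not called.

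Prdm14, which keeps Fgf receptor signalling and de novo DNA methylation low in naive cells, lies at chr1:13113428-13127163. Its probe set read 7.77 and 7.94 in A1, 8.09 and 8.22 in A4 and 8.30 and 8.30 in A3. Here A3 was highest and A1 lowest, in that order in both conditions. The A3 difference was 0.30 ± 0.10 (adjusted p = 0.114), and A1 minus A4 was as large, -0.30 ± 0.11.

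Counted by probe set, 5 of 23 were called lower in A3 (21.7%) and 0 higher, where 5.68% of all probe sets were called lower, 3.89% higher and 9.57% in either direction by the same limma test. Among all probe sets with a mean of at least 6 log2, as 16 of the 23 had, 10.3% were called lower. By the brightest probe set of each gene, 2 of 9 were lower and 0 higher, against 6.32% and 5.13% of all genes. The A3 arrays lay below the other 4 arrays at 10 member probe sets (43.5%), as they did at 16.6% of all probe sets, and above them at 3 (13.0%), against 19.8% of all. With 1 array left out at a time, 0 to 2 member probe sets were called, and the 0 was found without the A1 induced array. The smallest difference called anywhere in this fit was 0.37 log2.

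None of the 23 probe sets was called between A1 and A4, in a comparison that called 0.0178% of all probe sets, and only Prdm14 had an unadjusted p below the threshold (0.0312). For the brightest probe sets the largest A1 minus A4 difference in size was that of Prdm14, and for the 5 genes lowest in A3 the values ran from -0.17 to 0.04. The p-values measure the spread between the cultures of a clone. They do not say how often a clone of this kind would differ.

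**Figure D2:**
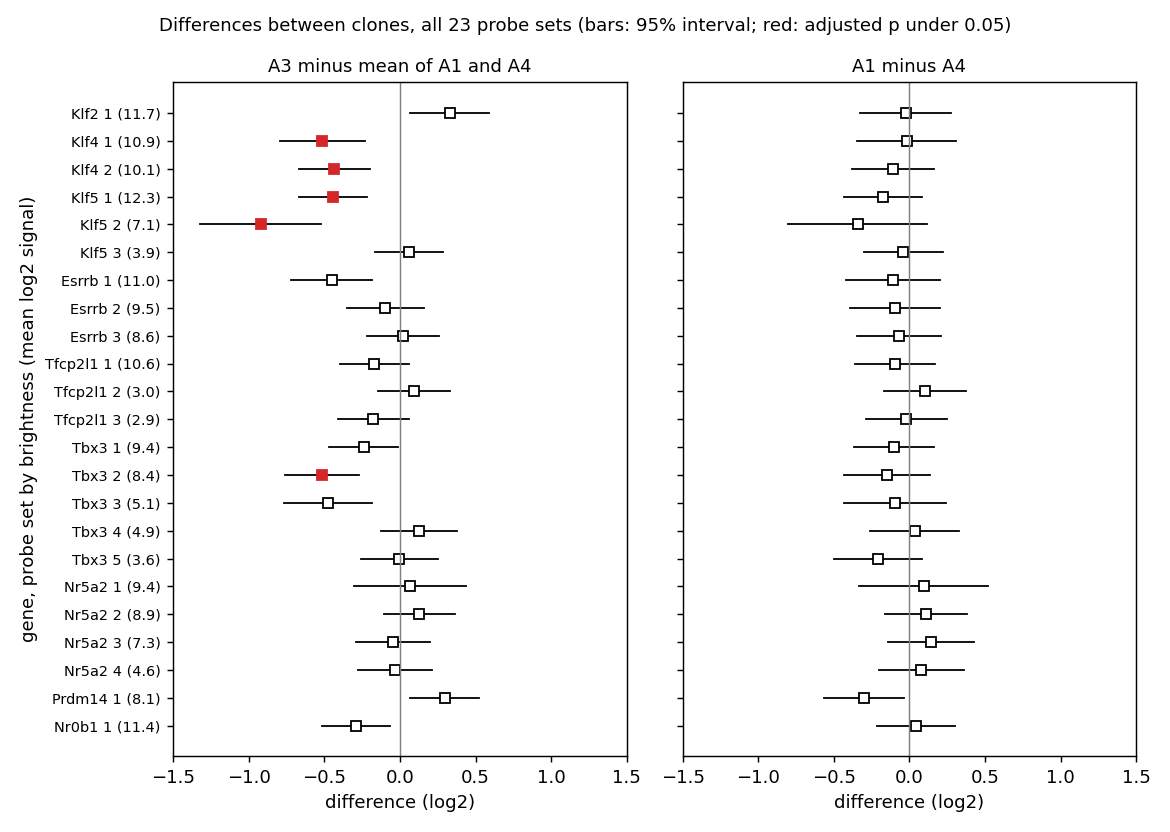
Differences between clones at all 23 probe sets (log2, horizontal axis; squares are estimates, bars 95% intervals), numbered by brightness with the mean log2 signal in parentheses. On the left, 2 Klf4, 2 Klf5 and 1 Tbx3 probe sets are red (adjusted p below the threshold) and below 0 in A3, while no probe set is red for A1 minus A4 on the right.

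The members were among the brighter genes on the array. Every brightest probe set lay at or above the 80.9th percentile of mean signal over all probe sets, and 6 of the 23 probe sets had means below 5 log2. On the chromosomes that hold the members, the median A3 difference of expressed genes ran from -0.05 (chromosome 14, with Klf5) to 0.04 (chromosome X, with Nr0b1). These medians were smaller in size than the member differences there. Calls in A3 were 60 lower and 31 higher of 331 expressed genes on chromosome 14, and 57 and 26 of 350 on chromosome 12, with Esrrb. They were 42 and 36 of 522 on chromosome 1, 58 and 46 of 627 on 4, and 46 and 32 of 634 on 5. On 8 they were 47 and 38 of 533, and on X 26 and 35 of 294. Any part of the chromosome in the member differences was not tested. Chromosome 15, whose expressed genes were lower in A3 as a whole (median -0.28), holds none of the 9.

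By profile over the 6 arrays, the genes outside the list nearest to Klf4 were Mreg (root mean square distance 0.0257 log2 after centring, r = 0.995) and Ddx46 (0.0271, r = 0.995). Nearest to Klf5 were Cnot3 (0.0342, r = 0.990) and Thrap3 (0.0368, r = 0.988). Within the list, r over the 6 arrays was 0.963 for Klf5 and Tfcp2l1, 0.934 for Klf5 and Esrrb and 0.856 for Klf4 and Esrrb, but -0.825 for Klf4 and Klf2 and -0.842 for Prdm14 and Nr0b1. These are descriptions over 6 arrays of 3 clones and not independent points, since the arrays of a clone share its differences.

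None of 7 measured core genes was called in A3, with a median difference of -0.04. For this and the list counts below, 6.32% of all genes were called lower and 5.13% higher by their brightest probe set. Pou5f1 differed by -0.01, Sox2 by 0.04 and Nanog by -0.12, and the smallest p belonged to Foxd3 (0.20) and Sall4 (-0.14), neither of them called. The 10 ES cell markers, which share genes with this list, had no call either and a median of -0.02, and their mean signal per array ran from 10.86 to 10.99 log2. In bulk RNA, fewer cells expressing a gene and less RNA in each cell cannot be told apart.

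Naive marker genes that are not among the 9 were split. Of 11 measured, 2 were called higher in A3 (Dppa3, a maternal and germ line factor, 1.05; Pecam1, an adhesion molecule of naive cells, 0.61) and 2 lower (Gbx2, a Stat3 target, -1.16; Tet2, a methylcytosine dioxygenase, -0.53), with a median of 0.005. Gbx2 read 9.24 and 9.05 in A3 against 10.37 and 10.50 in A1 and 10.22 and 10.14 in A4 (limma adjusted p = 0.00115). Dppa3 lay in the opposite direction, with a mean of 7.95 in A3 against 6.86 in A1 and 6.95 in A4 (adjusted p = 0.00115). Zfp42, the common naive marker Rex1, differed by 0.005 and was not called.

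Among the primed genes the largest differences, given as a description, were Otx2 (2.88), the tight junction gene Cldn6 (1.87), the zinc finger gene Zic5 (1.78) and the Nodal antagonist Lefty1 (1.38). Sox3 was an exception at -0.49, and Fgf5, the usual primed marker, stood at 0.10 with a mean signal of only 3.99.

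Of 12 genes of the LIF receptor and Stat3 pathway, read by the brightest probe set alone, 3 were called lower in A3 and 0 higher, with a median of 0.006. Pim1, at 0.29 by its brightest probe set, had 2 probe sets, both positive, and the dimmer 1 was called. The 3 were Bcl3 (-0.67) and Socs3 (-0.58), both Stat3 targets, and the kinase Jak1 (-0.55). Socs3, the feedback inhibitor of the pathway, read 10.31 and 10.39 in A3 against 10.65 and 11.19 in A1 and 10.81 and 11.08 in A4. Stat3 itself was at -0.30 by its brightest probe set (limma adjusted p = 0.142). All 4 Stat3 probe sets were negative, and 1 of the dimmer ones was called. Il6st stood at 0.29 without a call by its brightest probe set, and 1 of its 4 probe sets was called. The receptor Lifr was at -0.01. Of the Wnt, Gsk3 and Tcf genes, 1 of 10 was higher (Lef1, 0.66) and 1 lower (Axin2, the feedback target of beta-catenin, -0.64), and Tcf7l1 stood at -0.18 without a call.

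FGF and ERK genes moved in both directions. Among 11, the immediate early gene Egr1 (1.21) and Fgfr2 (0.47) were higher, while Etv4 (-1.07), Spred1 (-0.70) and Spry2 (-0.62), targets and feedback inhibitors of the cascade, were lower. Of 8 DNA methylation genes, 3 were lower, the dioxygenases Tet1 (-0.90) and Tet2 (-0.53) and the maintenance factor Uhrf1 (-0.51), and 0 were higher. The de novo methylation genes Dnmt3b (0.33) and Dnmt3l (0.30), which Prdm14 is known to hold down, were not called.

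The wider families of the 9 genes mostly showed no call. Of 20 other Klf and Sp genes, 1 was higher in A3 (Klf15, 0.97) and 2 lower (Sp1, -0.56; Klf12, -0.44), with a median of 0.07. Of 25 other relatives, 3 were higher and 1 lower. The higher ones were Prdm1 (1.14), a repressor that acts in the germ line, Grhl1 (0.58) and Grhl3 (0.47). The lower one was Ubp1 (-0.49), a grainyhead-like relative of Tfcp2l1. The median of these relatives was 0.16. For comparison, all genes had a median of 0.04.

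**Figure D3:**
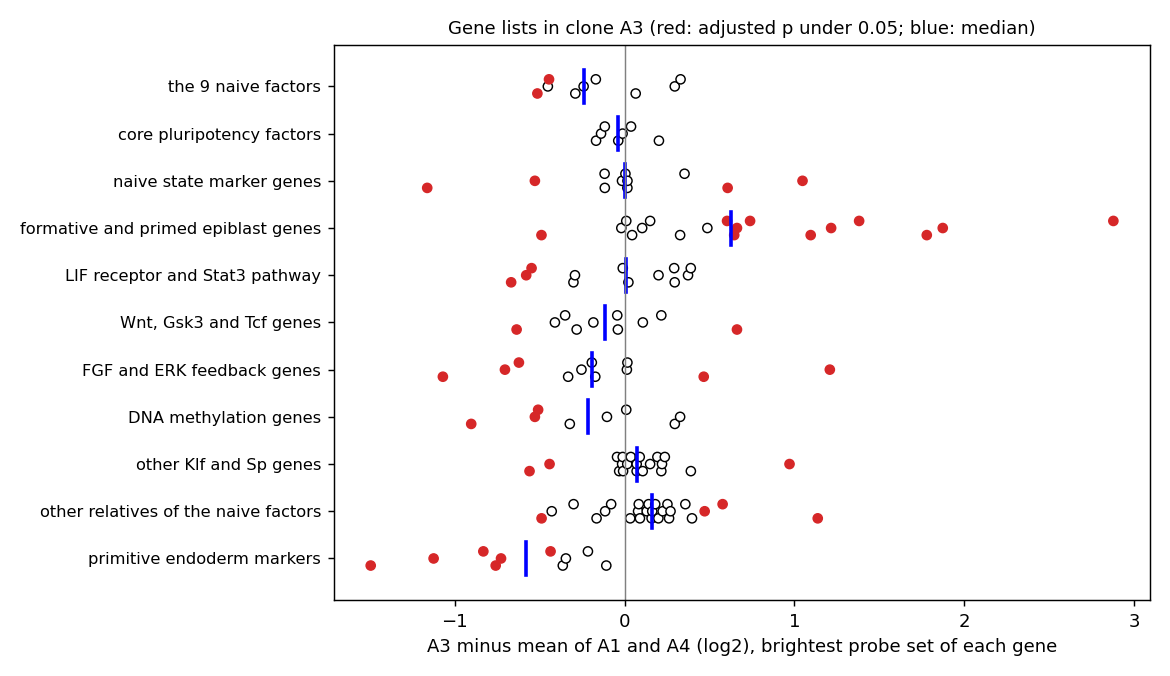
A3 minus the mean of A1 and A4 (log2, horizontal axis) for each measured gene of 11 lists, by its brightest probe set; red points had an adjusted p below the threshold, and blue lines are list medians. The 9 naive factors have a median of -0.24, the primed genes, whose height chose the clone, 0.62 and the primitive endoderm markers -0.58.

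Markers of another cell type moved with the same clone. All 10 primitive endoderm markers had negative differences in A3, and 6 were called lower, against 6.32% of all genes. The median was -0.58 (Col4a1 -1.49, Dab2 -1.12, Sox7 -0.83, Gata4 -0.76). Their summed linear signal was 613 and 617 in A3, 869 and 897 in A4, and 1086 and 1165 in A1. The part of these markers in the member differences, and in that of Tbx3 in particular, was not tested.

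Other cell types gave fewer calls. Trophectoderm markers had 2 of 9 higher (Tfap2c 1.10, Ascl2 0.84) and a summed signal of 1017 and 928 in A3 against 511 to 656 elsewhere. Neural markers had 1 of 9 lower (Map2, -0.54), and the 8 mesoderm and 8 fibroblast markers had no call. Mesp1 (0.23) and Hand2 (0.32) had the smallest p among the mesoderm markers, and Lum (0.28) and Thy1 (-0.26) among those of fibroblasts.

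The 9 genes were next compared between induced and control cultures, the contrast for which the clones were made. None of the 23 probe sets was called. The limma test called 0 of 45037 probe sets (0%; smallest adjusted p 1.00), with 676 at an unadjusted p below the threshold, none of them a member. Means of the brightest probe sets moved by at most 0.17 log2, and the 95% intervals lay between -0.60 and 0.52. Changes within the interval of a gene were not excluded by this fit, which leaves the differences between clones in its error. With the clone as a block, the intervals lay between -0.40 and 0.31.

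Klf5 was the only gene whose brightest probe set moved the same way in all 3 clones, with -0.24 for A1, -0.16 for A3 and -0.12 for A4 (12.43 ± 0.27 in controls and 12.26 ± 0.28 in induced cells, SD, n = 3 each). Its mean change of -0.17 had an SE of 0.18, or of 0.09 with the clone as a block, and was not called in either fit (limma adjusted p = 1.00 in each; unadjusted p = 0.101 with the block). Klf2 changed by -0.12 ± 0.15, with -0.33, -0.08 and 0.06 in A1, A3 and A4. Klf4 changed by 0.04 ± 0.21, made of 0.18, -0.24 and 0.18, so that A3 went opposite to the others, and this difference between clones could not be tested with 1 pair of arrays each.

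Esrrb changed by -0.07 ± 0.19 and split by clone, with -0.25, -0.12 and 0.17. Nr5a2 had the widest clone changes, 0.41 for A1, -0.20 for A3 and -0.37 for A4, around a mean of -0.05 ± 0.15. Tfcp2l1 (-0.08 ± 0.11), Tbx3 (-0.004 ± 0.12), Prdm14 (0.10 ± 0.16) and Nr0b1 (-0.05 ± 0.13) were not called either. None of the 160 genes in the other lists was called on induction.

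**Figure D4:**
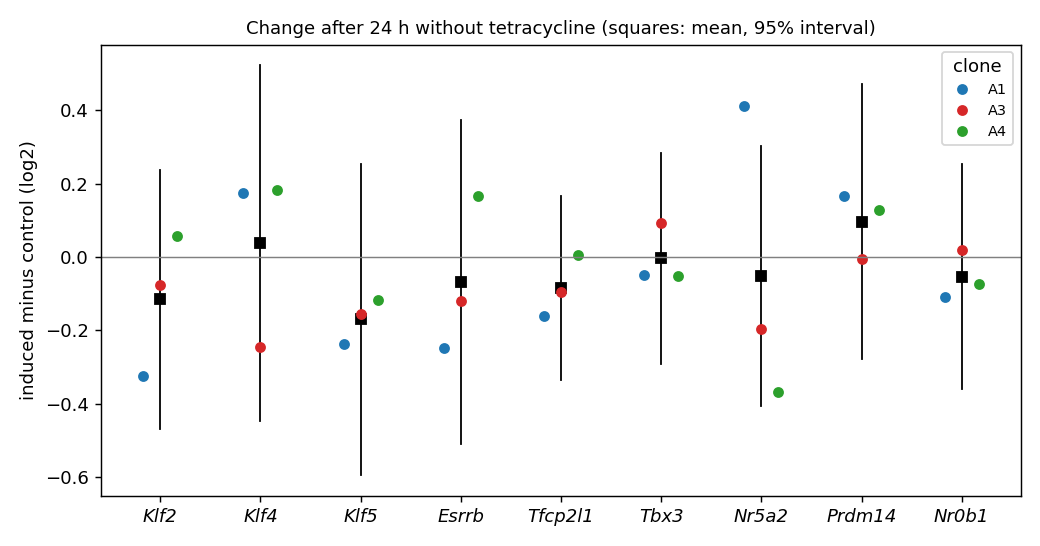
Change from control to induced culture (log2, vertical axis) of the brightest probe set of each gene; coloured points are the 3 clones and black squares the mean with its 95% interval. Every interval spans 0, and single clones range from -0.37 to 0.41, both for Nr5a2.

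The arrays give no separate reading of the transgene. Its induction in clones A1, A3 and A4 was followed in the paper by real-time PCR over a time course, from which 24 h was chosen for the arrays. The 6 probe sets of Eif4h, the mouse orthologue of WBSCR1, changed by -0.27 to 0.07 log2 and none was called, and whether they bind the human transcript was not analysed here.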

How the data were processed

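RNA of 3 clones, each as control and induced culture, was hybridized to 6 Affymetrix arrays. The deposited values are log2 signals that the authors obtained by the robust multiarray average (RMA) in the Bioconductor affy package, with no version given in the sources used here. No further normalization was applied. After 64 control probe sets were set aside, 45037 remained, of which the platform annotation gave 1 symbol to 34945, several to 932 and none to 9160.

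Groups and clones came from the sample labels. Tests used lmFit and eBayes of limma 3.58.1 (R 4.3.3), two-sided, on all probe sets with Benjamini-Hochberg adjustment at 0.05. Induction was fitted with condition alone (the study's methods name a t-test and do not say whether it was paired), and the clones with condition and clone. Replicate numbers mark the clone and so pair the arrays; deviations from group means correlated at 0.313 (A1), 0.670 (A3) and 0.290 (A4), and a fit with the clone as a block was an alternative. A gene was read by its brightest probe set, with the others beside it for the members. Counts in the other lists rest on the brightest probe set of each gene alone. Precision is limited by the number of arrays.

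The members, the 15 other gene lists and the comparison of A3 were chosen with earlier results of these data known. The text names all members; of each other list, up to 4 genes with the largest called A3 difference, or else the 2 with the smallest p; and the 2 genes nearest in profile to each called member. Other list genes named for their role were chosen after their values were seen. The fits were tested on simulated data. Promoters are RefSeq sequences (GRCm38.p6). Plots used matplotlib 3.10.9 in Python 3.11.15.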

Additional observations from a re-analysis of the deposited data

How the results depend on the processing

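Every member kept its direction in A3 in all alternatives run, except Nr5a2, which turned to -0.11 without control replicate 1 (A1), -0.04 without control replicate 2 (A3) and -0.05 without induced replicate 3 (A4), within -0.11 to 0.24 over the leave-one-out fits, and was -0.04 in the induced arrays alone. The 5 member probe sets called in A3 became 9 with trend and robust options, 3 with 1 probe set for each symbol and 3 with an added threshold of 0.5 log2, and 5 to 7 under other normalizations, filters, array weights or no condition term. Leaving out 1 array or clone left 0 (without the A1 induced array) to 2, and the count over all probe sets, 4309 with every array, was 1312 (without the A3 induced array) to 3098; an arm with a lone array was assumed to vary like the others. Klf4 was called in 12 of 19 tested alternatives (adjusted p 0.00968 to 0.361) and lost its call without any array except the A3 control, and without A1 or A4. Klf5 was called in 10 (0.00290 to 0.165) and lost its call in every such leave-out, besides missing the added threshold by its size. Esrrb was called in 7 of 19 (0.0133 to 0.366), Klf2, Prdm14 and Nr0b1 in 1 each, and Tfcp2l1, Tbx3 and Nr5a2 in 0.

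With the clone as a replicate block, 0 probe sets were called on induction (smallest adjusted p 1.00; 1539 at an unadjusted p below the threshold), and the methods' t-test called 0 (smallest adjusted p 0.878; 1096 unadjusted). The block narrowed the intervals of the members' brightest probe sets to between -0.40 and 0.31 and changed no call. A3 could not be compared without its own clone, and without control replicate 3 and induced replicate 1 together the clone fit has no residual degrees of freedom, so only values were had. Probe sets near the bottom of the signal range, such as those of Tfcp2l1 near 3 log2, could hardly show a fall.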
